A study of Mus musculus with 6 samples.

Results

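Cd34, Lgr5, Lgr6, Lrig1, Lhx2, Sox9, Sox2 and Pitx1 are 8 genes known from hair follicle stem cells or from the cells that keep squamous tumours growing. They, and the gene lists set beside them, were chosen by name with earlier results of these data known. Each of the 8 matched 1 of the 23726 gene models in the deposited count table. RNA was sequenced from 6 mouse libraries of a chemical skin cancer model, in which DMBA mutates keratinocytes and the tumour promoter TPA then makes them proliferate. The biopsies were 1 whole piece of healthy skin (S), 2 distinct DMBA/TPA papillomas (P1 and P2, here papilloma 1 and papilloma 2) and 1 DMBA/TPA tumour (T). The cell samples, 1 library each, were mSCC-38, which the submitters call highly tumorigenic, and mSCC-20, which they call non-tumorigenic, both isolated from DMBA/TPA tumours. The labels give no strain, sex or age of the mice, and do not say whether the papillomas came from separate mice or the mSCC cells from 1 tumour. Papilloma was the only group with more than 1 library. Intervals for the other groups therefore cover counting error alone, and their variation between samples was not measured. The p-values rest on the spread between the papillomas, which may be technical in part, and on a spread pooled over genes. Skin and tumour are taken to vary as the papillomas do.

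The hair follicle renews itself from stem cells in its bulge, which carry CD34 in the mouse and depend on the transcription factors SOX9 and LHX2. LGR5 and LGR6, receptors for the R-spondins that strengthen Wnt signals, mark stem cells of the lower bulge and of the isthmus above it, and LRIG1, a membrane protein that restrains EGF receptors, marks the junctional zone near the sebaceous gland. In mouse squamous carcinoma CD34 and SOX2 mark cells that can start new tumours, and PITX1 is a homeodomain transcription factor found in such carcinomas.

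Total counts were 41462120 in skin, 25140489 and 29982455 in papilloma 1 and papilloma 2, 42992597 in the tumour, 30955914 in mSCC-38 and 31045938 in mSCC-20. Levels are given as CPM, counts per 1000000 after TMM scaling for library composition. A count of 0 allows up to 3 counts, or 0.0604 to 0.141 CPM in these libraries, and intervals and such floors cover counting error only. RNA integrity numbers were lowest in skin (7.5) and highest in mSCC-38 (9.6). Each of the 6 basal keratinocyte genes reached 1 CPM in every library. Markers of blood progenitors and mast cells summed to 0.332 CPM in mSCC-38 and 0.357 CPM in mSCC-20, against 88.6 to 125 CPM in the biopsies. Hair follicle differentiation genes, which are hair sheath and shaft genes and their regulators, set the papillomas apart. The 16 genes summed to 6116 CPM in papilloma 2 and 156 CPM in papilloma 1. Their sum was 21170 CPM in skin and 50.3 CPM in the tumour. Of the papilloma 1 sum, the regulators Gata3 and Foxn1 made up 91.1 and 25.7 CPM. In the biopsies, fewer cells of a type and less RNA per cell cannot be told apart.

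**Figure D1:**
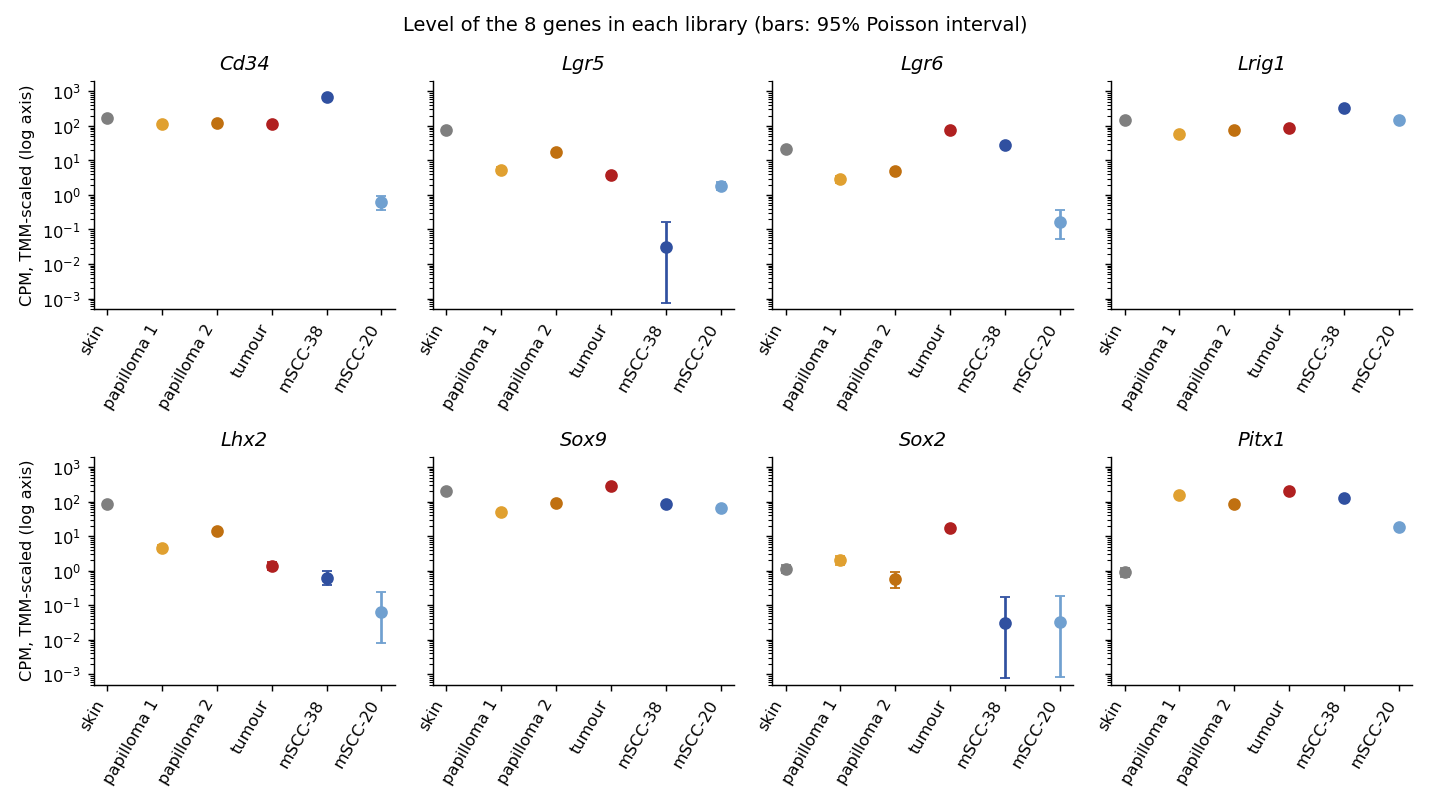
Level of each of the 8 genes (CPM after TMM scaling, log axis) in skin, papilloma 1, papilloma 2, tumour, mSCC-38 and mSCC-20; points are single libraries and bars their 95% Poisson intervals. Lgr5 and Lhx2 were highest in skin, Sox2, Lgr6, Sox9 and Pitx1 in the tumour, and Cd34 and Lrig1 in mSCC-38.

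Promoter windows from 250 bases before to 50 bases after the RefSeq start (GRCm38.p6) were found for 5 of the 8 genes: Cd34, Lgr6, Lrig1, Lhx2 and Sox2. They are shown for Lgr6 and Sox2, which rose in the tumour, for Cd34, which differed most between the mSCC cells, and for Lrig1, which shares a motif with Lgr6. Capitals mark the SOX motif AACAAT on either strand, which 10.7% of 32851 such windows hold. It was found in Lgr6 (first base at -63) and Lrig1 (first base at -22). Also searched on both strands, and without a match in the windows of these 5 genes, were AP-1 (TGANTCA, in 7.81% of windows), TCF/LEF (CTTTGA, 16%), PITX (TAATCC, 7.06%) and LHX (TAATTA, 5.29%), none of which overlapped another match. CpG pairs numbered 24 in Lgr6, 27 in Sox2 and 35 in Lrig1, and 7 in Cd34, the median of the windows searched.
Lgr6 (chr1:135105227-135105526, minus strand): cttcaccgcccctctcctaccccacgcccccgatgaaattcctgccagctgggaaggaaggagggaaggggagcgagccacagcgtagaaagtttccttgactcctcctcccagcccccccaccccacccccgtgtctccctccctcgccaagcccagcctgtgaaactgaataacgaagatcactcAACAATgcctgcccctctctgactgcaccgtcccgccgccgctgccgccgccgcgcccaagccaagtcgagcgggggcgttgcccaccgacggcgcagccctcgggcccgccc
Sox2 (chr3:34649745-34650044, plus strand): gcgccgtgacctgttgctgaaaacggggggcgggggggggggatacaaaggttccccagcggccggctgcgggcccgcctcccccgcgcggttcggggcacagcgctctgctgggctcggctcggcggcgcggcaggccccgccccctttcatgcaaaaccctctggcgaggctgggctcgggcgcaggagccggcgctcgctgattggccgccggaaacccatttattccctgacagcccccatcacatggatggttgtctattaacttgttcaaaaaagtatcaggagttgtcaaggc
Cd34 (chr1:194938571-194938870, plus strand): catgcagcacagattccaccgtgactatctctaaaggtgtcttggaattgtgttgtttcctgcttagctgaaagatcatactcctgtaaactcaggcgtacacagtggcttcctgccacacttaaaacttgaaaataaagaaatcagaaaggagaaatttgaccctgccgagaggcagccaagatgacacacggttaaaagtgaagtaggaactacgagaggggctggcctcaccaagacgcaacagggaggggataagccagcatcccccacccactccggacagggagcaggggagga
Lrig1 (chr6:94700096-94700395, minus strand): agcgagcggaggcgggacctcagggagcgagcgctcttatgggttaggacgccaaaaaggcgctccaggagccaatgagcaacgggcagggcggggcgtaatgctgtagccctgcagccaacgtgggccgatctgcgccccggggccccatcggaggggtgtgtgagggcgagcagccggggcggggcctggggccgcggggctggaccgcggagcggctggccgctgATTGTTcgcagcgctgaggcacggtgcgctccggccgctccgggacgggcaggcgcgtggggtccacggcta
The Sox2 window's start lies 410 bases from the start of the transcript the count table lists. A match is a run of letters and not a bound site.

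The first comparison set benign papillomas beside healthy skin. Of the 8 genes, 5 fell in papilloma (Lhx2, Lgr5, Lgr6, Sox9 and Lrig1) and 1 rose (Pitx1) by edgeR's quasi-likelihood test over the 4 biopsies, at a Benjamini-Hochberg adjusted p under 0.05. Among 16353 genes tested, 26.0% were called, 14.1% lower and 12.0% higher. Cd34 and Sox2 did not pass. With DESeq2's size factors in place of TMM, 2 of the 8 (Lhx2 and Lgr6) were called lower. Calls over all genes then also dropped, to 1633 lower and 1579 higher. Total-count scaling moved the median log2 fold change of all genes to -0.48, against -0.06 with TMM, and the calls over all genes to 1015 higher and 3484 lower, against 1959 and 2298.

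The second comparison set the tumour beside the papillomas. Lgr6, Sox2 and Sox9 rose in the tumour, 3 of the 8 genes, where 22.5% of all genes tested were called and 11.9% were higher. With edgeR 0 of the 8 passed as lower after adjustment, where 10.6% of all genes were called lower. DESeq2's Wald test also gave 0. At an unadjusted edgeR p under 0.05, for which no share of all genes is given, 1 of the 8 (Lhx2) was lower. Among the alternatives run, Lhx2 passed after adjustment only with no filter on low counts (edgeR adjusted p = 0.0215).

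**Figure D2:**
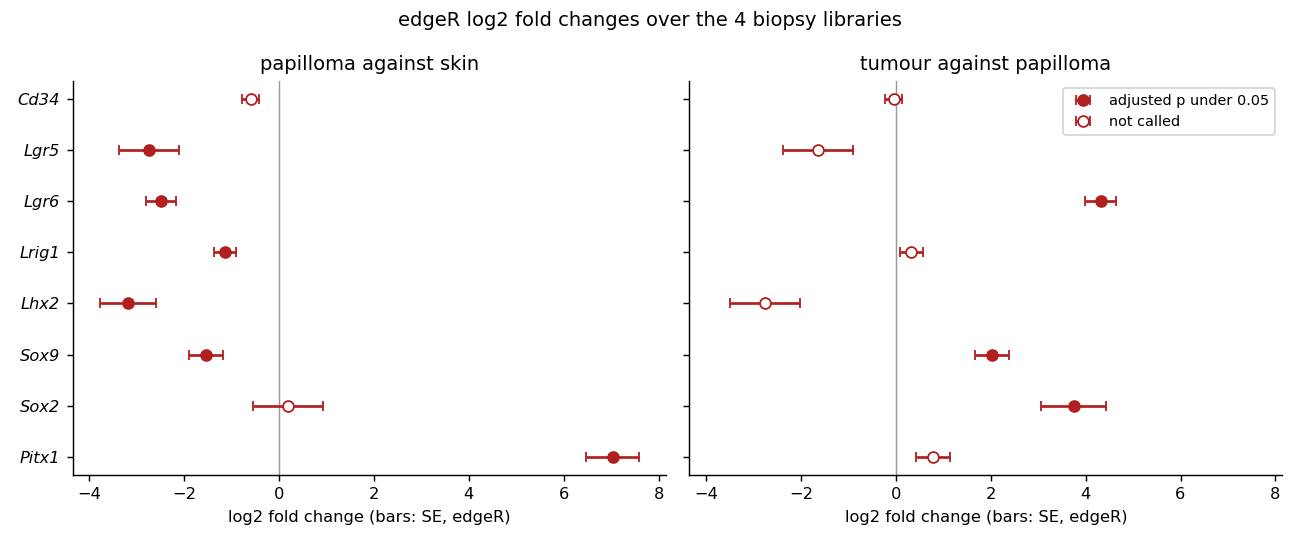
Log2 fold change of each gene by edgeR (x axis; bars are SE) with papilloma over skin on the left and tumour over papilloma on the right; filled points had an adjusted p under 0.05. Pitx1 lay at 7.03 in papilloma, and Lgr6, Sox9 and Sox2 were below or near 0 in papilloma and at 4.32, 2.02 and 3.75 in the tumour.

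Among the bulge genes, Lhx2 (mm9 chromosome 2, 38206828 to 38225248, plus strand), a LIM homeodomain factor of follicle progenitors, had 4.69 CPM in papilloma 1 and 14.1 CPM in papilloma 2, against 86.8 CPM in skin. Both papillomas lay far below skin. The log2 fold change was -3.19 ± 0.59 (SE; edgeR adjusted p = 0.0238, 0.00544 to 0.0451 over the alternatives). On single libraries the log2 ratio of CPM (0.5 CPM added to each side) was -4.07 without papilloma 2 and -2.58 without papilloma 1. In the tumour Lhx2 had 1.40 CPM, below both papillomas, with a log2 fold change against papilloma of -2.76 ± 0.74 (edgeR adjusted p = 0.0584); the log2 ratio was -1.45 without papilloma 2 and -2.94 without papilloma 1. The mSCC-38 cells had 21 counts (0.634 CPM) and mSCC-20 had 2 counts (0.0649 CPM), a ratio of 9.76 (95% interval 2.39 to 85.8, counting error only). In mSCC-20, 8 hair sheath and shaft genes that reached 500 CPM in skin were counted at 0.0298% to 0.115% of their skin level, and Lhx2 at 0.0748% of its own, within that range.

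Lgr5 (chromosome 10, 114887370 to 115024836, minus strand), the R-spondin receptor of cycling follicle stem cells, was also highest in skin among the 6 libraries. It had 5.34 CPM in papilloma 1 and 17.7 CPM in papilloma 2, against 77.9 CPM in skin. The log2 fold change was -2.74 ± 0.64 (edgeR adjusted p = 0.0392). The call was lost with DESeq2's size factors (adjusted p = 0.0653) and with DESeq2's Wald test (adjusted p = 0.12). Without papilloma 2 the log2 ratio was -3.75 and without papilloma 1 it was -2.11. The tumour, at 3.73 CPM, lay just under papilloma 1 and did not pass against papilloma (log2 fold change -1.64 ± 0.73, edgeR adjusted p = 0.174). The mSCC-38 cells had 1 count and mSCC-20 had 57 counts (1.85 CPM), a ratio of mSCC-38 to mSCC-20 of 0.0163 (95% interval 0.000406 to 0.0946). In mSCC-38 the same 8 hair genes were counted at 0.0358% to 0.0601% of their skin level, and Lgr5 at 0.0387% of its own, within that range.

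Lhx2 and Lgr5 were 3.01-fold (95% interval 2.41 to 3.78) and 3.32-fold (2.70 to 4.10) higher in papilloma 2 than in papilloma 1. Papilloma 2 also held the hair sheath and shaft genes, at a median of 26.4% of their skin level, against 0.0642% in papilloma 1 (8 genes). The part of retained hair in these levels was not tested. Lhx2 and Lgr5 were counted in papilloma 1 at 5.40% and 6.86% of their skin level. Sox9 (1.79-fold), Lgr6 (1.76-fold) and Lrig1 (1.35-fold) were also higher in papilloma 2 and Cd34 differed by 1.09-fold, whereas the ratio of papilloma 2 to papilloma 1 was 0.56 for Pitx1 and 0.28 for Sox2. None of the 6 with 10 CPM in the higher papilloma reached 4-fold, 0 higher and 0 lower in papilloma 2, where 1.12% and 0.0904% of 9953 genes did.

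**Figure D3:**
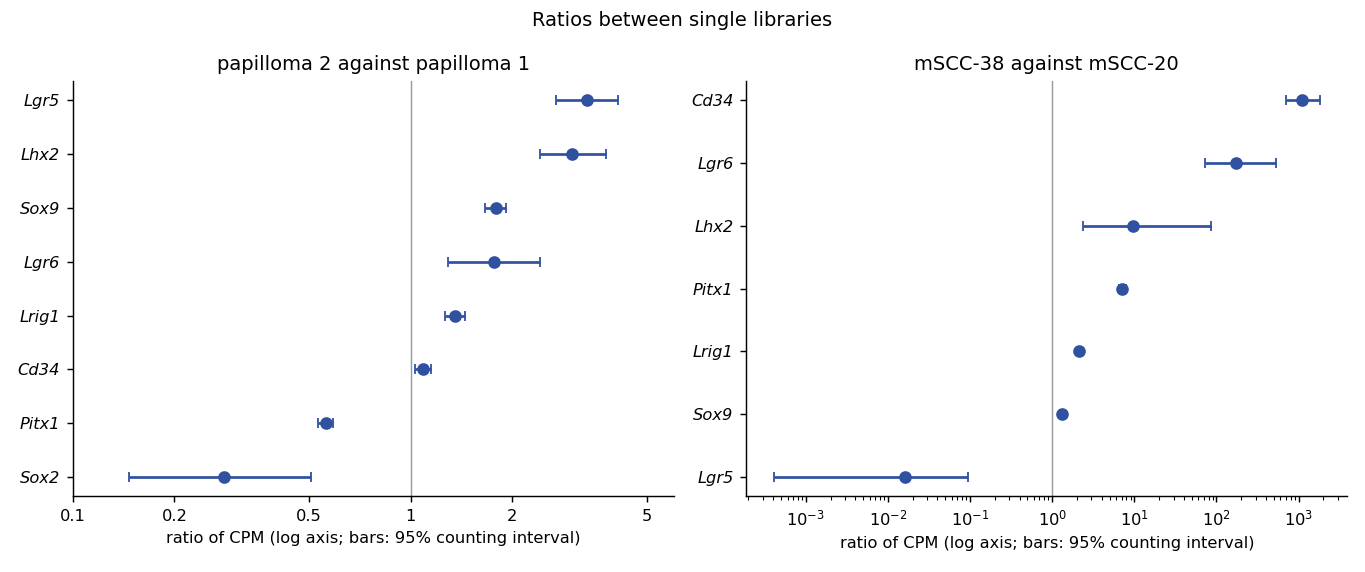
Ratio of CPM between single libraries (log axis; bars are 95% counting intervals) for papilloma 2 against papilloma 1 (left, all 8 genes) and mSCC-38 against mSCC-20 (right, 7 genes; Sox2 had 1 count on each side). Ratios ran from 0.28 for Sox2 to 3.32 for Lgr5 between the papillomas, and from 0.0163 for Lgr5 to 1100 for Cd34 between the mSCC cells.

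Sox9 (chromosome 11, 112643524 to 112649071, plus strand), an outer root sheath and bulge factor, had 50.7 CPM in papilloma 1 and 90.6 CPM in papilloma 2, against 206 CPM in skin. The log2 fold change was -1.54 ± 0.36 (edgeR adjusted p = 0.04), a call lost with DESeq2's size factors (adjusted p = 0.0646). The log2 ratio was -2.01 without papilloma 2 and -1.18 without papilloma 1. The tumour had 289 CPM, above both papillomas and above skin, and the rise against papilloma was 2.02 ± 0.36 in log2 units (edgeR adjusted p = 0.0218; 6.71e-07 to 0.0405 over the alternatives). Against each papilloma alone, the tumour's log2 ratio was 2.50 without papilloma 2 and 1.67 without papilloma 1. Sox9 had 88.3 CPM in mSCC-38 and 67.0 CPM in mSCC-20, both within the range of the papillomas.

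Cd34 (chromosome 1, 196765015 to 196787486, plus strand), a sialomucin of bulge cells that vessels, fibroblasts and blood progenitors also carry, changed little among the biopsies. It had 111 CPM in papilloma 1 and 120.2 CPM in papilloma 2, against 174 CPM in skin (log2 fold change -0.59 ± 0.18, edgeR adjusted p = 0.0677). It was called lower only with total-count scaling (log2 fold change -1.01, adjusted p = 0.0338). The tumour, at 113 CPM, lay between the papillomas (log2 fold change -0.04 ± 0.18, edgeR adjusted p = 0.90; 0.10 with total-count scaling). Endothelial markers summed to 261 CPM in the tumour, 309 and 267 CPM in papilloma 1 and papilloma 2, and 323 CPM in skin, and fibroblast markers to 4442, 4976, 4051 and 3455 CPM in the same order. Their part in the Cd34 level of the biopsies was not tested.

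The mSCC cells differed widely in Cd34, with 679 CPM in mSCC-38 and 0.617 CPM (19 counts) in mSCC-20. The ratio was 1100 (95% interval 704 to 1828). The level of mSCC-38 was the highest of the 6 libraries, and by the authors' RPKM, which divides by gene length, Cd34 at 280.4 was the highest of the 8 genes there and above 99.2% of the genes with a count. Endothelial markers summed to 16.9 CPM in mSCC-38 and 30.2 CPM in mSCC-20. Fibroblast markers summed to 212 CPM in mSCC-38 and 12.9 CPM in mSCC-20. Of 4 with 10 CPM in the higher library, 4 were at least 4-fold higher in mSCC-38, against 7.11% of 9797 genes. Col1a1, a collagen gene, had 123 CPM in mSCC-38 and 2.18 CPM in mSCC-20. Pdgfrb and Col3a1 had 21.1 and 28.9 CPM in mSCC-38, against 0.779 and 1.49 CPM in mSCC-20. Other genes of the list were low in both. Col1a2, a further collagen gene, had 2.78 CPM in mSCC-38 and 2.18 CPM in mSCC-20, against 911 CPM in skin. Dcn had 3.14 CPM in mSCC-38 and 0.552 CPM in mSCC-20, and Lum had 6 and 4 counts. Dpt, a dermal matrix gene, had 3 counts or fewer in both. The part of endothelial and fibroblast cells in the Cd34 difference was not tested. Gm16897, a model on the opposite strand that overlaps Cd34, had 2 counts in mSCC-38 and 0 in mSCC-20.

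Lgr6 (chromosome 1, 136882930 to 137001853, minus strand), the R-spondin receptor of the isthmus, fell in papilloma and rose in the tumour. It had 2.81 CPM in papilloma 1 and 4.94 CPM in papilloma 2, against 21.9 CPM in skin (log2 fold change -2.48 ± 0.32, edgeR adjusted p = 0.0127). The fall held its call in each alternative tested (adjusted p from 8.01e-08 to 0.0284). The tumour had 78.3 CPM, the highest of the 6 libraries, and its log2 fold change against papilloma was 4.32 ± 0.33 (edgeR adjusted p = 0.00364; 1.27e-23 to 0.0117 over the alternatives). Leaving out papilloma 1 or papilloma 2 gave tumour log2 ratios of 3.86 and 4.57. Against skin the tumour was 3.58-fold higher (95% interval 3.34 to 3.84), with no replicate check. Lgr6 had 27.7 CPM in mSCC-38 and 0.162 CPM (5 counts) in mSCC-20, a ratio of 171 (95% interval 72.8 to 527). Lgr6 and Cd34 were thus both under 20 counts in mSCC-20 and well counted in mSCC-38, while Lgr5 was counted more in mSCC-20.

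Lrig1 (chromosome 6, 94554523 to 94650139, minus strand), the EGF receptor antagonist of the junctional zone, was well counted in all 6 libraries. It had 58.1 CPM in papilloma 1 and 78.8 CPM in papilloma 2, against 149.8 CPM in skin (log2 fold change -1.13 ± 0.23, edgeR adjusted p = 0.0304). The call was lost with DESeq2's size factors (adjusted p = 0.0502). The tumour, at 86.7 CPM, did not pass against papilloma (log2 fold change 0.33 ± 0.24, edgeR adjusted p = 0.354). Lrig1 was highest in mSCC-38, at 320.3 CPM, against 152 CPM in mSCC-20, a ratio of 2.11 (95% interval 2.04 to 2.18). The levels of mSCC-20 (95% interval 147 to 156 CPM) and skin (146 to 153 CPM) overlapped. Slc25a26, which overlaps Lrig1 on the opposite strand, had 161 to 416 counts per library, against 1240 to 10616 for Lrig1.

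Sox2 (chromosome 3, 34548927 to 34551382, plus strand), a pluripotency factor absent from most normal keratinocytes, was counted well only in the tumour among these libraries. It had 43 counts (2.02 CPM) in papilloma 1 and 16 counts (0.565 CPM) in papilloma 2, against 55 counts (1.11 CPM) in skin. Skin lay between the papillomas, and the comparison did not pass (log2 fold change 0.19 ± 0.74, edgeR adjusted p = 0.86; -0.26 with total-count scaling). The tumour had 719 counts (17.1 CPM), above both papillomas, with a log2 fold change against papilloma of 3.75 ± 0.68 (edgeR adjusted p = 0.0226; 4.28e-05 to 0.0427 over the alternatives). The log2 ratio was 2.80 without papilloma 2 and 4.04 without papilloma 1. Against skin the tumour was 15.4-fold higher (95% interval 11.7 to 20.7), with no replicate check. The mSCC-38 and mSCC-20 cells had 1 count each, and no ratio is given between them. The overlapping transcript Sox2ot had 6 counts in the tumour, 0 in both papillomas and 14 in skin.

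Merkel cells, dermal papilla and Schwann cells also carry Sox2. Of 4 Merkel cell genes measured, 3 rose in the tumour against papilloma (Krt8, Krt18 and Isl1) and 0 fell. In that comparison 11.9% of all genes tested were called higher and 10.6% lower. The 3 rises had log2 fold changes of 5.99 ± 0.29, 4.07 ± 0.16 and 3.0 ± 0.36 (edgeR adjusted p = 0.00219, 0.00205 and 0.0088). Atoh1, which defines the Merkel lineage, had 0 counts in all 6 libraries, whole healthy skin included, so it cannot set the libraries apart. Krt20 had 0.498 CPM in the tumour, against 0.328 and 0.494 CPM in the papillomas and 1.11 CPM in skin. Krt8 and Krt18, keratins of simple epithelia, were also counted in cells with 1 count of Sox2, at 30.8 and 168 CPM in mSCC-38 and 198 and 305 CPM in mSCC-20. Dermal papilla genes summed to 39.6 CPM in the tumour, against 51.2 and 56.2 CPM in papilloma 1 and papilloma 2, and Schwann cell genes to 75.3 CPM, against 83.9 and 81.3 CPM. Single genes made up much of both sums. Crabp1 had 13.5 CPM in the tumour, against 39.1 and 36.4 CPM in papilloma 1 and papilloma 2. Inhba, also of the dermal papilla list, rose in the tumour (24.8 CPM, against 6.61 and 2.51 CPM), while 3 of the 6 fell. Of the Schwann cell genes, Mbp had 68.1 CPM in the tumour, against 73.5 and 64.3 CPM. The part of Merkel, dermal papilla and Schwann cells in the Sox2 level was not tested.

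Pitx1 (chromosome 13, 55926415 to 55932786, minus strand) was almost uncounted in skin and well counted in both papillomas and the tumour. It had 156 CPM in papilloma 1 and 87.1 CPM in papilloma 2, against 0.925 CPM (46 counts) in skin. The log2 fold change of 7.03 ± 0.55 (edgeR adjusted p = 0.00578, 1e-57 to 0.019 over the alternatives) was the largest of the 8 genes. The tumour had 209.5 CPM, above both papillomas, and did not pass against them (log2 fold change 0.78 ± 0.36, edgeR adjusted p = 0.184). Against skin the tumour was 226-fold higher (95% interval 169.6 to 309). Pitx1 had 131 CPM in mSCC-38 and 18.3 CPM in mSCC-20, a ratio of 7.17 (95% interval 6.57 to 7.84). By the authors' RPKM, Pitx1 was the highest of the 8 genes in papilloma 1 (54.3) and the tumour (84.5) and the lowest in skin (0.46).

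Trp63 and Klf4, named here after their values were seen, are known partners of Pitx1 in mouse squamous carcinoma, where p63 acts with it and KLF4, a differentiation factor, against it. Trp63 had 379.6 and 442 CPM in papilloma 1 and papilloma 2, against 311 CPM in skin, and 533 CPM in the tumour (log2 fold change against papilloma 0.37 ± 0.23, edgeR adjusted p = 0.30). Klf4 had 540.2 and 317 CPM in papilloma 1 and papilloma 2, against 164 CPM in skin, and 175 CPM in the tumour. Neither comparison passed for Klf4 (edgeR adjusted p = 0.059 in papilloma and 0.0747 in the tumour). Klf4 had 23.7 CPM in mSCC-38 and 69.5 CPM in mSCC-20.

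Set against skin without a test, 1 library a side, the tumour held Sox2 and Pitx1 at least 4-fold higher (2 of the 8 genes, against 5.44% of 11114 genes with 10 CPM or more in the higher library). Lgr5 and Lhx2 were 20.9-fold (95% interval 17.8 to 24.7) and 62.0-fold (48.0 to 81.6) lower in the tumour, against 9.40% of those genes at least 4-fold lower. In mSCC-38 against mSCC-20, 5 of the 8 genes reached 10 CPM in the higher library. Of these, Cd34, Lgr6 and Pitx1 were at least 4-fold higher, against 7.11% of 9797 genes, and 0 were at least 4-fold lower, against 3.47%. Against the tumour, mSCC-38 had 1 gene at least 4-fold higher (Cd34, 6-fold, 95% interval 5.82 to 6.2; background 3.09%) and 1 lower (Sox2; background 10.6%) of 6 read. In mSCC-20, 5 of those 6 genes were at least 4-fold lower than in the tumour (Cd34, Lgr6, Sox9, Sox2 and Pitx1; background 14.7%) and 0 higher (background 6.48%). Lrig1 was the exception, 1.75-fold higher in mSCC-20 than in the tumour (95% interval 1.68 to 1.83).

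Of 12 bulge and hair germ genes, 7 fell, 1 rose and 4 did not pass in papilloma. The median log2 fold change was -1.17, against -0.06 for all genes tested, of which 14.1% were called lower and 12.0% higher. With DESeq2's size factors 4 fell and 0 rose, where 1633 in place of 2298 of all genes were called lower. The deepest falls were in Gli1, a Hedgehog target (-3.44 ± 0.80, edgeR adjusted p = 0.0398), Krt15, the bulge keratin (-2.94 ± 0.29), and Tcf7l1, a Wnt-repressing factor of the bulge (-1.91 ± 0.22). Krt15 had 143 and 205 CPM in papilloma 1 and papilloma 2, against 1342 CPM in skin. For Gli1 the log2 ratio was -4.73 without papilloma 2 and -2.67 without papilloma 1. In the tumour against papilloma, 4 of the 12 rose and 3 fell (median 0.30, against -0.02 for all genes). Over all genes, 11.9% were called higher and 10.6% lower there. With DESeq2's size factors 2 rose and 3 fell. Calls over all genes were then 1596 higher and 1412 lower, in place of 1954 and 1733. Cd200, a bulge surface protein gene, and Dkk3 rose by 2.61 ± 0.31 and 1.52 ± 0.15 on the log2 scale, and Tbx1, a bulge factor, fell by 2.35 ± 0.19. Without papilloma 1 or papilloma 2 the log2 ratio of Cd200 was 2.29 and 2.99. In mSCC-38 against mSCC-20, 3 of the 7 bulge genes with 10 CPM were at least 4-fold higher (Dkk3, Gas1 and Krt15) and 0 lower. Of 9797 genes, 7.11% and 3.47% were. Of 3 isthmus genes, 1 rose (Prdm1, 0.94 ± 0.21) and 1 fell (Gata6, -2.03 ± 0.29) in papilloma, and 0 rose and 1 fell in the tumour (Prdm1, -1.10 ± 0.22). Gata6 had 13.3 CPM in mSCC-38 and 1 count in mSCC-20.

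Ligands, co-receptors and targets of the Lgr receptors gave 7 falls and 0 rises among 14 in papilloma. Over all genes, 14.1% were called lower and 12.0% higher. The median was -1.75, against -0.06 for all genes. With DESeq2's size factors there were 4 falls, where 1633 in place of 2298 of all genes were called lower. Lgr4, the third receptor of the family, had 26.8 and 54.2 CPM in papilloma 1 and papilloma 2, against 156 CPM in skin (log2 fold change -1.94 ± 0.41, edgeR adjusted p = 0.0318; log2 ratio -2.52 without papilloma 2 and -1.52 without papilloma 1). The ligand genes Rspo3 and Rspo4 also fell: Rspo3 had 0.141 and 1.09 CPM in papilloma 1 and papilloma 2, against 9.58 CPM in skin, and Rspo4 had 1.83 and 2.40 CPM, against 9.19 CPM. Rspo3 had 3 counts in papilloma 1; its log2 ratio was -3.98 without papilloma 2 and -2.66 without papilloma 1. In the tumour against papilloma 5 of the 14 fell and 0 rose (median -1.83, against -0.02 for all genes), in the biopsy where Lgr6 was highest. Over all genes, 10.6% were called lower and 11.9% higher there. Tnfrsf19, a Wnt target of follicle stem cells, fell by 3.61 ± 0.31 in log2 units (edgeR adjusted p = 0.00462), and Rspo1 had 1 count in the tumour, against 2.63 and 2.26 CPM in the papillomas. In mSCC-38 against mSCC-20, 1 of 6 was at least 4-fold higher and 0 lower, against 7.11% and 3.47% of 9797 genes. The Wnt target Axin2 had 20.6 CPM in mSCC-38 and 0.162 CPM in mSCC-20.

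Of 12 genes tied to self-renewal in squamous carcinoma, 5 rose, 1 fell and 6 did not pass in papilloma, where 12.0% of all genes were called higher and 14.1% lower (median 0.82, against -0.06 for all genes). Itga6, a basal integrin, rose by 2.13 ± 0.26, Vegfa, the endothelial growth factor gene, by 1.73 ± 0.29 and Pdpn, the podoplanin gene, by 1.52 ± 0.19 in log2 units (edgeR adjusted p = 0.011, 0.0198 and 0.0115). In the tumour 4 of the 12 rose and 0 fell against papilloma (median 0.63), where 11.9% of all genes were called higher and 10.6% lower. Among the rises were Twist1, a mesenchymal factor gene (1.11 ± 0.18), Pdpn (1.05 ± 0.17) and Tgfbr2, a TGF-beta receptor gene (0.81 ± 0.18). In mSCC-38 against mSCC-20, 3 of 11 were at least 4-fold higher and 1 lower, against 7.11% and 3.47% of 9797 genes. The higher included Nrp1, a VEGF co-receptor gene (126 CPM in mSCC-38 and 2.14 CPM in mSCC-20). The lower was Pdpn (0.905 CPM in mSCC-38 and 138 CPM in mSCC-20). Among EGF receptor and Lrig family genes, 1 of 5 fell in papilloma, Lrig3 (-1.20 ± 0.20), and 0 of 5 were called in the tumour against papilloma (edgeR and DESeq2's Wald test, adjusted p under 0.05; at an unadjusted p under 0.05, 0 higher and 0 lower).

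Among paralogs and cofactors of the 4 transcription factors, 2 rose and 9 fell of 19 in papilloma (median -1.25, against -0.06 for all genes). Over all genes, 12.0% were called higher and 14.1% lower there. In the tumour against papilloma 1 rose and 2 fell, near or under the shares of all genes (11.9% higher and 10.6% lower). Sox15, a keratinocyte Sox gene, rose in papilloma by 3.46 ± 0.20 in log2 units (edgeR adjusted p = 0.00419), with 32.2 and 29.1 CPM in papilloma 1 and papilloma 2, against 2.80 CPM in skin. Sox10, the neural crest factor gene, fell by 2.53 ± 0.45 (edgeR adjusted p = 0.0216), and Schwann cell genes, which include it, fell in 5 of 6 cases. Sox8 was also among the falls, with 1.27 CPM in skin and at most 3 counts in each papilloma. In the tumour against papilloma Sox4 rose by 1.57 ± 0.25 and Sox7 and Sox21 fell by 2.21 ± 0.17 and 1.26 ± 0.29 on the log2 scale. In mSCC-38 against mSCC-20, Sox11 was the 1 of 7 paralogs at least 4-fold higher, against 7.11% of 9797 genes. It had 21.5 CPM in mSCC-38 and 0.0974 CPM in mSCC-20.

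The counts of called marker genes of other cells read against 14.1% of all genes lower and 12.0% higher in papilloma, and 10.6% lower and 11.9% higher in the tumour. For endothelial and hair differentiation genes the counts below lie near those shares. The 2 hair genes called by edgeR in each comparison were the regulators Gata3 and Foxn1. The 16 hair genes still had large median log2 fold changes, -2.77 in papilloma and -6.74 in the tumour against papilloma. Their spread between the papillomas was wide: 13 of 15 were at least 4-fold higher in papilloma 2, against 1.12% of 9953 genes. In the tumour against skin, 16 of 16 were at least 4-fold lower, against 9.40% of 11114 genes. Papilloma had 4 of 6 sebaceous genes, 2 of 10 endothelial, 2 of 8 fibroblast and 2 of 16 hair differentiation genes lower than skin and 0 higher, and 0 of 6 blood progenitor and mast cell genes called either way by edgeR (1 higher and 1 lower at an unadjusted p under 0.05, and 0 and 1 by DESeq2). Of 6 basal keratinocyte genes 3 rose and 1 fell, of 6 dermal papilla genes 1 rose and 1 fell, and of 4 Merkel cell genes 2 fell. The tumour against papilloma had 5 of 6 sebaceous, 3 of 8 fibroblast, 1 of 10 endothelial, 1 of 6 Schwann cell and 2 of 16 hair genes lower and 0 higher. Of 6 blood progenitor and mast cell genes 4 fell and 1 rose, of 6 dermal papilla genes 3 fell and 1 rose, and of 6 basal keratinocyte genes 3 rose and 0 fell. Their part in the levels of the 8 genes was not tested.

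**Figure D4:**
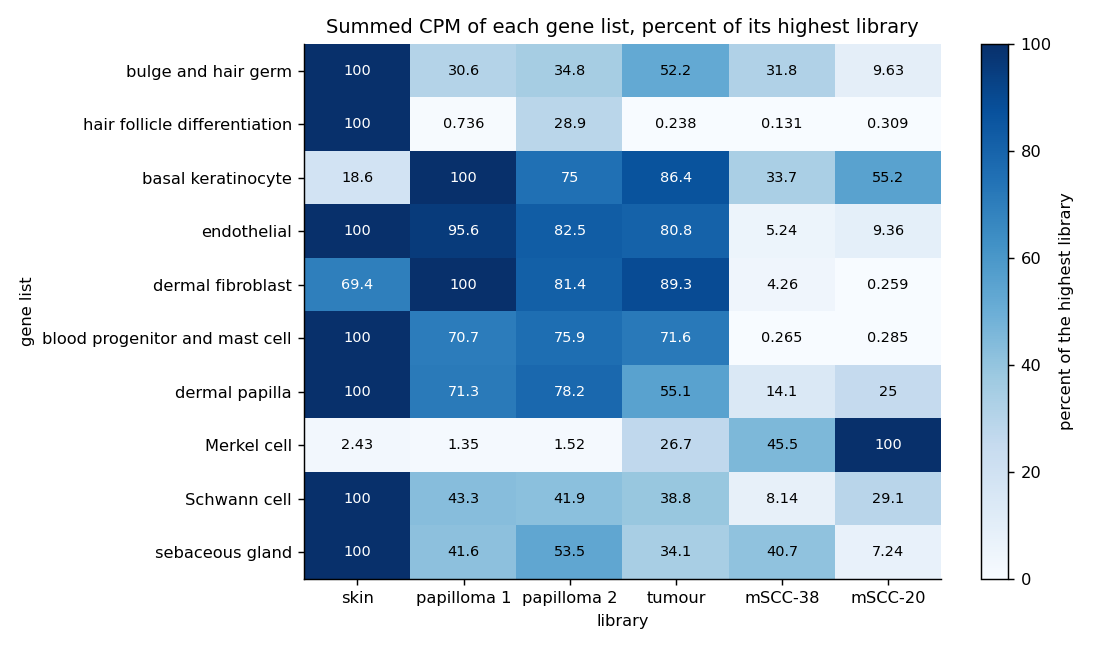
Summed CPM of 10 gene lists (rows) in each library (columns), as percent of the list's highest library, printed in each cell. Hair follicle differentiation genes stood at 0.736% in papilloma 1 and 28.9% in papilloma 2, and blood progenitor and mast cell genes at 0.265% in mSCC-38 and 0.285% in mSCC-20.

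The 3 genes most like each member were found by Pearson's r of log2 (CPM + 0.5) over the 6 libraries among 13053 genes that reached 5 CPM in at least 1 library. With so few points, which share their libraries, r is a description only, and it takes no account of the size of a change. Cd34 was most like Tusc1, Nrp1 and Zcchc24 (r = 0.995 for each), of which Zcchc24 had 207 CPM in mSCC-38 and 0.519 CPM in mSCC-20. Lgr5 was most like Rasl11b, Lgals12 and Sema6a (r = 0.993 to 0.998), and Lhx2 like Efna2, Ism1 and Gldn (0.994 to 0.997). Lgr6 was most like Cnr1, Akap9 and Rbms3 (0.992 to 0.994), and Lrig1 like Ift27, 1700081L11Rik and Syde1 (0.993 to 0.995). Akap9 ran only from 69.4 to 94.1 CPM over the 6 libraries, against 0.162 to 78.3 CPM for Lgr6. Sox2 was most like Tex15, Pglyrp1 and Cd8a (0.988 for each), with Tex15 at 78.2 CPM in the tumour and 3.38 and 1.27 CPM in papilloma 1 and papilloma 2. Sox9 was most like BC032203, Fbxl12 and Lats2 (0.967 to 0.992), and Pitx1 like Clic1, 4930583H14Rik and Pfkp (0.993 to 0.997). Among the 8 genes themselves the highest r was 0.91, between Lgr5 and Lhx2, followed by 0.79 between Lgr6 and Sox9 and 0.77 between Cd34 and Lgr6.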

How the data were processed

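RNA of 6 libraries was read from 1 deposited table of 23726 gene models, placed on mm9 according to the submitters' processing notes. Which aligner and counter were used, and whether strand was respected, is not given in the sources used here. Per the file headers, the authors deposited raw counts and RPKM values for each gene model; RPKM was used only to order genes within a library. Per the labels' protocols, total RNA went through a SOLiD small RNA library set.

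Counts were scaled by TMM (factors 0.848 to 1.20) and fitted with edgeR 4.0.16 (limma 3.58.1, R 4.3.3) over the 4 biopsies, 16353 genes after edgeR's filter on low counts, with 1 residual degree of freedom. The filter kept all 8 members. Benjamini-Hochberg adjustment ran over all genes. The SE is the size of the log2 fold change over the root of F. Comparisons of 1 library a side have no test and use a 4-fold rule at 10 CPM; their intervals are exact Clopper-Pearson intervals of the counts. Alternatives were DESeq2 1.42.0, DESeq2's size factors, total counts, no filter, all 6 libraries in the fit, leaving out each papilloma, and pseudocounts of 0.1 and 1 CPM. The edgeR step was tested on simulated data. Of 139 genes in 15 lists, 137 were matched by name. Genes named from a list are the 3 of largest size among those called; any further gene was picked with its values known. The members and lists were chosen with earlier results of these data known.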

Additional observations from a re-analysis of the deposited data

How the results depend on the processing

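The directions and calls of the 8 genes were recomputed under each alternative, and the cause of each change below was not tested. With DESeq2's size factors, 2 in place of 5 of the 8 genes were called lower in papilloma, and 1633 in place of 2298 of all genes. Total-count scaling gave 1015 genes higher and 3484 lower in papilloma, against 1959 and 2298, and turned 2 uncalled log2 fold changes: Sox2 in papilloma against skin (-0.26) and Cd34 in the tumour against papilloma (0.10). It also made 2 in place of 1 of the 8 genes at least 4-fold higher in mSCC-38 than in the tumour. With no filter on low counts, 1 in place of 0 of the 8 was lower in the tumour than in papilloma (Lhx2). By ratio of CPM, the number of the 8 at least 4-fold lower in the tumour than in papilloma was 0 to 2 when 1 papilloma was left out, against 1 with both; leaving 1 papilloma out allows no test. The other 61 counts of genes past a threshold stayed within 1.5 times. Of the gene lists, DESeq2's size factors left 4 in place of 7 bulge genes and 4 in place of 7 R-spondin and Wnt genes lower in papilloma, and 2 in place of 4 bulge genes higher in the tumour. DESeq2's Wald test gave 3 in place of 0 fibroblast genes higher in papilloma, and in the tumour 5 in place of 3 basal genes higher (5 also with total counts) and 4 in place of 2 hair genes lower. Total counts left 1 in place of 3 dermal papilla genes lower in the tumour. The other list counts that moved past 1.5 times changed by 1 gene. No paired analysis was possible because only papilloma has more than 1 library. Depth limits Sox2, Lgr5 and Lhx2 in the mSCC cells, where they had 1 to 57 counts, and Sox2 and Pitx1 in skin, with 55 and 46 counts. It also limits Cd34 and Lgr6 in mSCC-20, with 19 and 5 counts, and so their ratios of mSCC-38 to mSCC-20.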
